A study of Mus musculus with 4 samples.

Results

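The genes described here are interferon-stimulated genes, transcripts that cells make after an interferon has bound its receptor. They were taken from a list of 47 symbols, of which 46 had a row among the 32285 genes of the count matrices, and Mx1 had none. UMIs (unique molecular identifiers, which tag single RNA molecules) of these 46 genes were summed in every library over nuclei assigned to neurons, oligodendrocytes, oligodendrocyte precursor cells (OPC), astrocytes or microglia, and the question was whether the response was confined to microglia and whether it differed between 3 and 6 months of age. Nuclei of GCLC-KO mouse cortex, 1 mouse per library, were profiled by single-nucleus RNA-seq. Libraries 3M-1 and 3M-2 are from mice aged 3 months, whereas 6M-1 and 6M-2 are from mice aged 6 months. Where 4 values follow each other, both 3-month libraries stand first and both 6-month libraries last, each pair in the order of its numbers. In all 4 mice a floxed Gclc gene, which encodes the catalytic subunit of the ligase that starts glutathione synthesis, was deleted with CaMKII-Cre, a recombinase made in forebrain neurons. Cortical regions rich in rod-shaped microglia were used, and no wild-type library was among the samples, so a level at either age is a level in the knockout. The labels give batch 1 to 3M-1 and 6M-1 and batch 2 to 3M-2 and 6M-2.

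Type I interferons bind a receptor made of IFNAR1 and IFNAR2, and the kinases JAK1 and TYK2 then activate STAT proteins, of which STAT2 joins IRF9 in a complex that binds interferon-stimulated response elements in promoters. The induced genes include cytosolic sensors of viral RNA, proteins that bind or degrade such RNA, GTPases that attack membranes of parasites, and the ubiquitin-like protein ISG15 with its ligases and proteases. In brain, a small group of microglia with high levels of these genes is known from aged and diseased tissue, and astrocytes, oligodendrocyte lineage cells and neurons also carry the receptor.

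The core of the response element is 2 copies of GAAA separated by 2 bases (GAAANNGAAA, with N any base, searched on both strands, so that its reverse complement is the same match). RefSeq promoter windows, from 250 bases before to 50 bases after the transcription start, were found for 37 of the 46 genes on GRCm38.p6. In 24 of these 37 genes (64.9%) a window held the core, against 1079 of 27025 genes (3.99%) with a window in the whole genome. A match is a description of letters and not a bound site. Shown here, 5′ to 3′ on the gene's strand with each core in capitals, are windows of genes that later results turn on: Ifit1 (chr19:34640639-34640938, plus strand), whose level in OPC and astrocytes was close to that in microglia, Isg15 (chr4:156200769-156201068, minus strand), which names the family, Ddx60 (chr8:61927837-61928136, plus strand), a helicase that works with RIG-I and was detected in most OPC nuclei rich in these genes, and Xaf1 (chr11:72301379-72301678, plus strand), a pro-apoptotic gene with its highest mean in oligodendrocytes, whose window held no core.
Ifit1: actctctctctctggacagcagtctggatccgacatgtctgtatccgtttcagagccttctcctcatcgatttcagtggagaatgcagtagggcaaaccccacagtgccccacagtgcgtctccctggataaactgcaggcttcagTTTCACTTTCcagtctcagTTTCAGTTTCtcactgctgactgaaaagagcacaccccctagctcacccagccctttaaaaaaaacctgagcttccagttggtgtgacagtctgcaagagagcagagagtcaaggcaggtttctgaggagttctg
Isg15: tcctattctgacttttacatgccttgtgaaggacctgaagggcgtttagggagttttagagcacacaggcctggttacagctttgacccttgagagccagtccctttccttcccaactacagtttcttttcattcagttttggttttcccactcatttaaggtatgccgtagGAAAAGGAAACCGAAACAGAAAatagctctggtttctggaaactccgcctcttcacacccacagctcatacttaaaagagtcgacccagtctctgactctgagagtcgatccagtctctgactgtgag
Ddx60: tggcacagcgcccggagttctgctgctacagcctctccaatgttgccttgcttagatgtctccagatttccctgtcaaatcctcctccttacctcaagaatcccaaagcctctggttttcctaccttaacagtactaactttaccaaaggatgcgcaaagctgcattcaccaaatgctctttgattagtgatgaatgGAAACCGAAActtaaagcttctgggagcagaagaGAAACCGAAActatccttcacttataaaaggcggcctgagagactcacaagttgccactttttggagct
Xaf1: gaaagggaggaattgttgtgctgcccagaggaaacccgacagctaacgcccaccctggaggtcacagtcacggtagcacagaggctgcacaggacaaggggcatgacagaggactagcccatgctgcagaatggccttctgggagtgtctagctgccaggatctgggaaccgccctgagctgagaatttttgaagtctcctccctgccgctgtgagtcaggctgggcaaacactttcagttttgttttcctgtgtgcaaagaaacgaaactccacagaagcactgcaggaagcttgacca
The Ifit1 and Ddx60 windows each held 2 cores. In the Isg15 window 3 cores overlapped, and the one nearest to the start began 66 bases before it.

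Each nucleus was assigned to a class by 12 marker genes per class that share no symbol with the list. Across the 4 libraries this gave 4204 to 6449 neurons, 861 to 1541 oligodendrocytes, 169 to 243 OPC, 37 to 77 astrocytes and 385 to 722 microglia. Markers kept out of the assignment were highest in their own class. The 10 held-out microglial markers, Ctss and C1qb among them, came to 4674 ± 241 CPM (UMIs scaled to 1000000 UMIs of the class, SD, n = 4) in microglia, against 34.8 ± 10.1 CPM in neurons and 85.2 ± 22.9 CPM in OPC. Library totals were 59262228 to 65894316 UMIs, and any 2 libraries shared 12 to 19 cell barcodes. Gclc itself was detected in excitatory neurons at 42.5, 33.5, 35.2 and 37.0 CPM in the 4 libraries. In inhibitory neurons it was at 47.8, 40.9, 38.0 and 43.9 CPM, and the deletion cannot be checked without wild-type nuclei. Fewer expressing nuclei and less RNA per nucleus cannot be told apart in sums over a class.

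Microglia held the highest summed level of the 46 genes. By library it was 2464, 2708, 3441.5 and 2681 CPM in microglia, 410, 762, 699 and 649 CPM in astrocytes, 368, 562, 757 and 470 CPM in OPC, 129, 193, 286 and 204 CPM in oligodendrocytes, and 102, 117, 135 and 104 CPM in neurons. Every microglial library lay above every library of the other classes, and the ranges of OPC and astrocytes overlapped. The mean over 4 libraries was 22.3% of the microglial mean in astrocytes, 19.1% in OPC, 7.19% in oligodendrocytes and 4.05% in neurons. Stat2, Herc6 and Irf9 made up 54.0% of the neuronal sum and 10.3% of the microglial one. Without these 3 genes neurons came to 52.8 ± 12.5 CPM and microglia to 2530 ± 396 CPM (SD, n = 4).

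**Figure D1:**
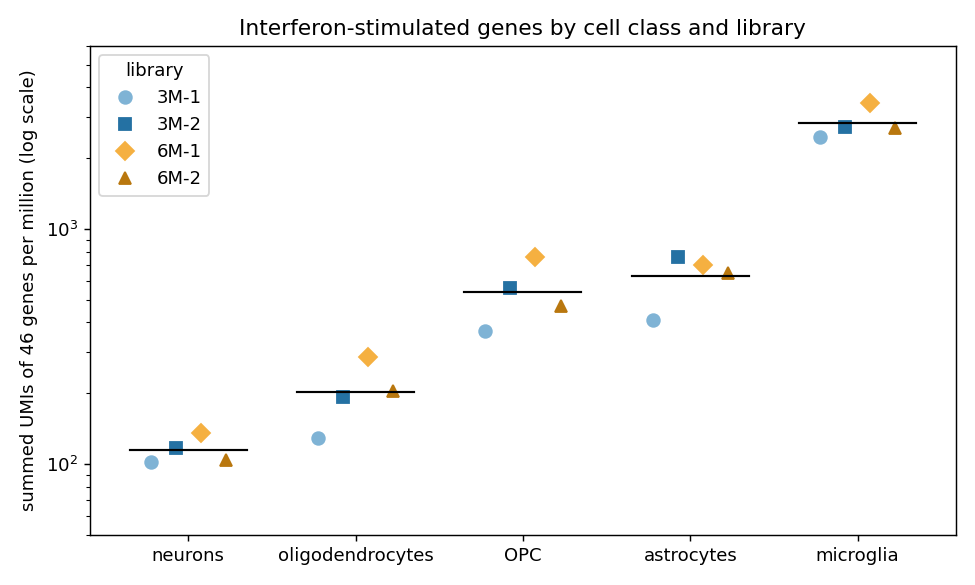
Summed level (CPM) of the 46 interferon-stimulated genes in each cell class (log scale), with 1 point per library and a line at the mean of 4 libraries. All microglial points, from 2464 to 3441.5 CPM, lie above all points of the other classes, and 6M-1 is the highest library in every class except astrocytes.

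Gene by gene, 41 of the 46 members had their highest mean CPM in microglia, and in 29 of these every microglial library lay above every library of the class next in rank. The shares of all genes that do so were not computed, so both counts describe the members only. Astrocytes had the highest mean for Ifit1, Gbp3, Rsad2 and Cmpk2, on only 10, 6, 5 and 5 UMIs in all. Oligodendrocytes had it for Xaf1, and libraries overlapped in all 5. In edgeR's quasi-likelihood test with the mouse as a block, 40 members could be tested, since 6 had too few UMIs. A member could enter this test through microglia alone, so the counts that follow describe the members and are not evidence for the class. Higher in microglia than in neurons were 39 of 40, where 38.4% of all genes tested were called higher. Against oligodendrocytes 39 were higher and 1 lower, where 28.0% of all genes were called higher and 27.9% lower. Against OPC 31 were higher (30.2% of all genes), and against astrocytes 28 (23.7% of all genes), with none called lower in either. The median log2 difference of the members was 5.05 against neurons, 4.55 against oligodendrocytes, 2.21 against OPC and 1.99 against astrocytes (1.95 with 8 genes at 0 in astrocytes set to 3 UMIs over the class), beside 0.04, −0.06, 0.03 and 0.19 for all genes tested. When libraries were scaled by total UMIs alone, the median of all genes moved to 0.49, 0.31, 0.23 and 0.36 and those of the members to 5.50, 4.92, 2.41 and 2.16.

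**Figure D2:**
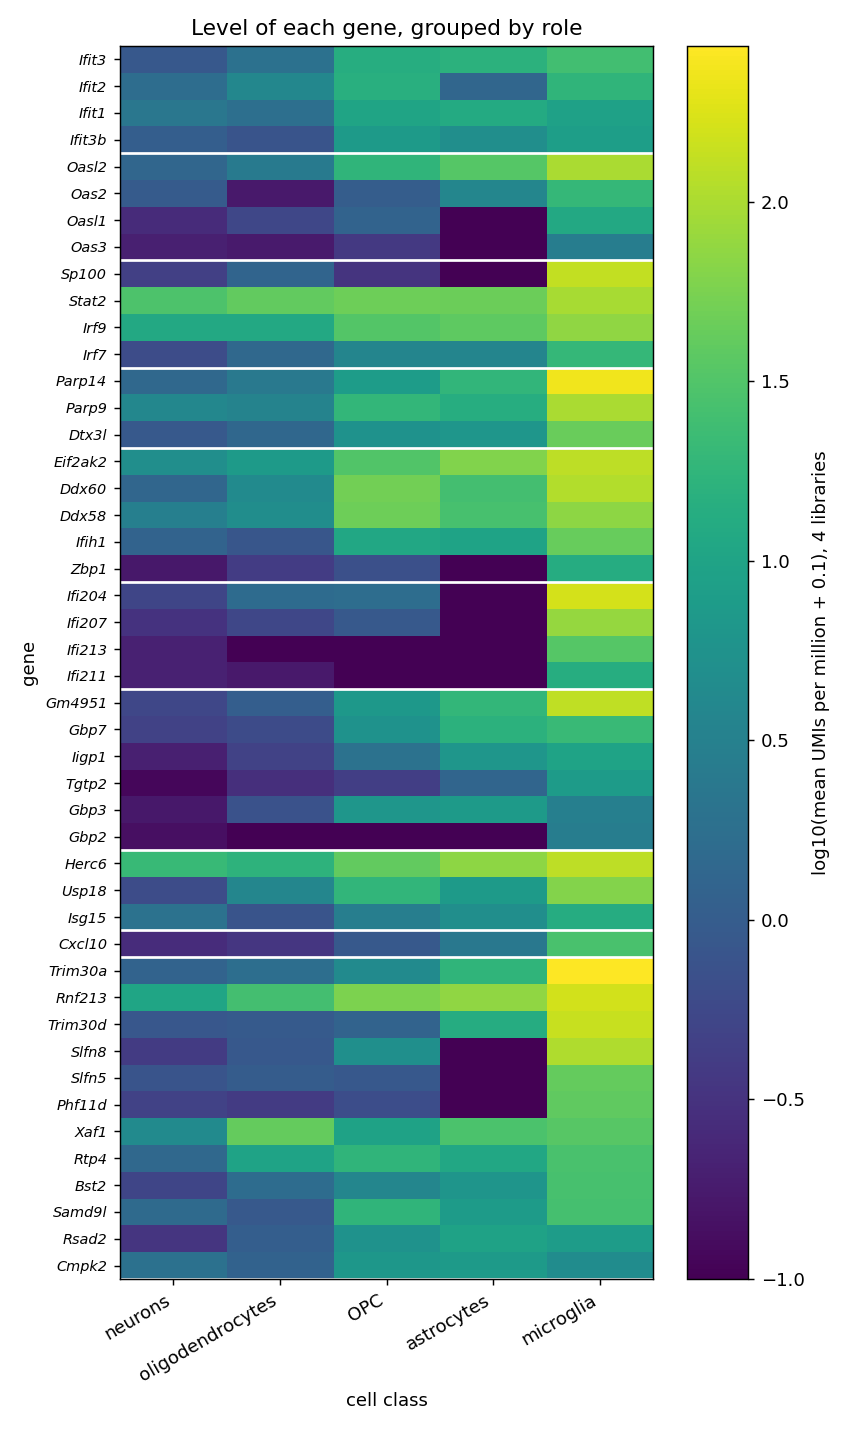
Mean level of each of the 46 genes in each cell class over 4 libraries, as log10 of CPM plus 0.1, with genes grouped by role between white lines: IFIT genes, OAS genes, transcription factors with Sp100, PARP genes with Dtx3l, nucleic acid sensors, PYHIN genes, GTPases, the ISG15 system, Cxcl10 and other effectors. The PYHIN genes and Sp100 are dark outside microglia, whereas Stat2, Herc6 and Rnf213 are bright in every class.

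Among the 5 sensors of nucleic acids, all were higher in microglia than in neurons (38.4% of all genes), oligodendrocytes (28.0%) and astrocytes (23.7%). Of these sensors 4 were higher than in OPC (30.2% of all genes). They too could enter the test through microglia alone. Ddx60 in microglia was at 71.7, 146, 136 and 87.6 CPM, and in OPC at 34.4, 36.1, 88.2 and 44.4 CPM. The 2 ranges overlapped through the OPC of 6M-1. The difference was 0.92 ± 0.22 on the log2 scale (SE, edgeR adjusted p = 0.00081), and OPC exceeded neurons by 5.07 ± 0.26 (SE, edgeR adjusted p = 2.65e-15). Ddx58, which encodes the RNA sensor RIG-I, had 71.2 ± 5.76 CPM in microglia and 47.0 ± 1.27 CPM in OPC (SD, n = 4), and its log2 difference of 0.40 ± 0.19 did not pass the test (SE, edgeR adjusted p = 0.069) except under scaling by total UMIs alone. Zbp1, a sensor of left-handed nucleic acids, had 13.3 ± 3.42 CPM in microglia and at most 0.580 CPM as a mean in any other class. It had 0 UMIs in astrocytes, so its call against that class rests on a count of 0.

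The IFIT genes encode proteins that bind the 5′ ends of viral RNA. All 4 were higher in microglia than in neurons (38.4% of all genes) and in oligodendrocytes (28.0%), and they too could enter the test through microglia alone. None was called between microglia and OPC, but Ifit3 was called higher in microglia by DESeq2, under scaling by total UMIs alone and without 3M-2. Ifit1 was at 9.98, 15.9, 9.10 and 1.58 CPM in microglia, on 37 UMIs in all. In OPC it was at 5.44, 8.02, 16.3 and 9.86 CPM on 35 UMIs, and these ranges overlapped. Ifit3 was at 25.4, 27.4, 28.7 and 15.8 CPM in microglia and at 6.35, 24.1, 17.4 and 6.16 CPM in OPC. Microglia minus OPC was −0.43 ± 0.46 for Ifit1, 0.10 ± 0.32 for Ifit2, 0.76 ± 0.34 for Ifit3 and −0.16 ± 0.54 for Ifit3b on the log2 scale (SE), and the sign for Ifit2 and Ifit3b changed under other settings. Ifit3 and Ifit3b are close copies, so reads may have been divided between them. All 4 IFIT genes were higher in OPC than in neurons (25.8% of all genes), by 1.95 to 3.80 on the log2 scale.

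Genes of the PYHIN family, which bind DNA or regulate its sensing, and the nuclear body component Sp100 were almost absent outside microglia. Ifi204 was at 97.1, 136, 234 and 182 CPM in microglia. Its mean was 0.424 CPM in neurons, 1.46 CPM in oligodendrocytes and 1.59 CPM in OPC, and no UMI was found in astrocytes. Sp100 was at 106, 107, 176 and 131 CPM in microglia, and its mean was at most 1.19 CPM in any other class. In astrocytes 0 UMIs allowed up to 14.9 to 27.6 CPM per library, so their absence from that class was not measured finely. The log2 difference between microglia and neurons was 8.15 ± 0.20 for Ifi204 (SE, edgeR adjusted p = 2.09e-21) and 8.11 ± 0.22 for Sp100 (SE, edgeR adjusted p = 1.28e-20). Both genes could enter this test through microglia alone, so these values describe them and are not evidence for the class. Trim30a, a negative regulator of innate signalling, was at 273, 231, 318 and 264 CPM in microglia and at 1.16 ± 0.32 CPM in neurons (SD, n = 4). On the same strand Sp100 overlaps the annotated gene n-R5s215 and Ifi211 overlaps Mndal, and Trim30a and Trim30d are close copies, so their counts are uncertain by the reads that such pairs share.

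The transcription factors Stat2 and Irf9, which act together at the response element, and the ligase Herc6 were present in every class. Stat2 was at 80.8, 101, 120 and 83.6 CPM in microglia and at 34.2, 25.2, 32.5 and 26.9 CPM in neurons, a log2 difference of 1.25 ± 0.12 (SE, edgeR adjusted p = 2.91e-10). Herc6, which joins ISG15 to its targets in the mouse, had 124 ± 9.87 CPM in microglia, 69.8 ± 33.6 CPM in astrocytes, 40.9 ± 7.71 CPM in OPC, 20.2 ± 3.40 CPM in neurons and 16.3 ± 9.11 CPM in oligodendrocytes (SD, n = 4). Isg15 had 13.2 ± 4.77 CPM in microglia and 1.85 ± 0.838 CPM in neurons. Usp18, the protease that removes ISG15 and also limits receptor signalling, was at 56.3, 69.3, 78.4 and 45.0 CPM in microglia and at 7.25, 18.7, 32.7 and 13.6 CPM in OPC. Those ranges did not overlap, and OPC exceeded neurons by 4.82 ± 0.35 on the log2 scale (SE, edgeR adjusted p = 3.41e-12). Irf9 and Herc6 overlap the annotated genes Rnf31 and Gm45193 on the same strand, which limits their counts in the same way. On the other strand Herc6 overlaps Gm19244 and Sp100 overlaps Gm17017, and whether the counting used strand is not given in the sources used here.

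RNA released from broken microglia gives UMIs in other nuclei, and the held-out microglial markers measure how much. As a mean over libraries these 10 genes reached 0.234% to 1.80% of their microglial level in neurons, 0.707% to 2.36% in oligodendrocytes, 0.845% to 4.84% in OPC and at most 2.50% in astrocytes. Above the highest of the 10 lay 23 of the 46 members in neurons, 29 in oligodendrocytes, 30 in OPC and 34 in astrocytes. Those 34 were all the members with any UMI in astrocytes, and 1 UMI put Ifit2 at 7.18%. The astrocyte count thus reflects detection and cannot separate the members from free RNA. In OPC and oligodendrocytes some members also passed on few UMIs. Oas3 did so on 1 UMI in each, at 9.73% and 2.72%. Sp100, at 0.268% of its microglial level in neurons and 0.174% in OPC, was among those within or below the range of the markers. At or above 50% of the microglial mean were 0 members in neurons, 1 in oligodendrocytes, 10 in OPC and 11 in astrocytes. Those in astrocytes rested on 4 (Ifit3b) to 50 (Herc6) UMIs each. The part of free RNA or joined nuclei in the members' levels was not tested beyond these values.

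**Figure D3:**
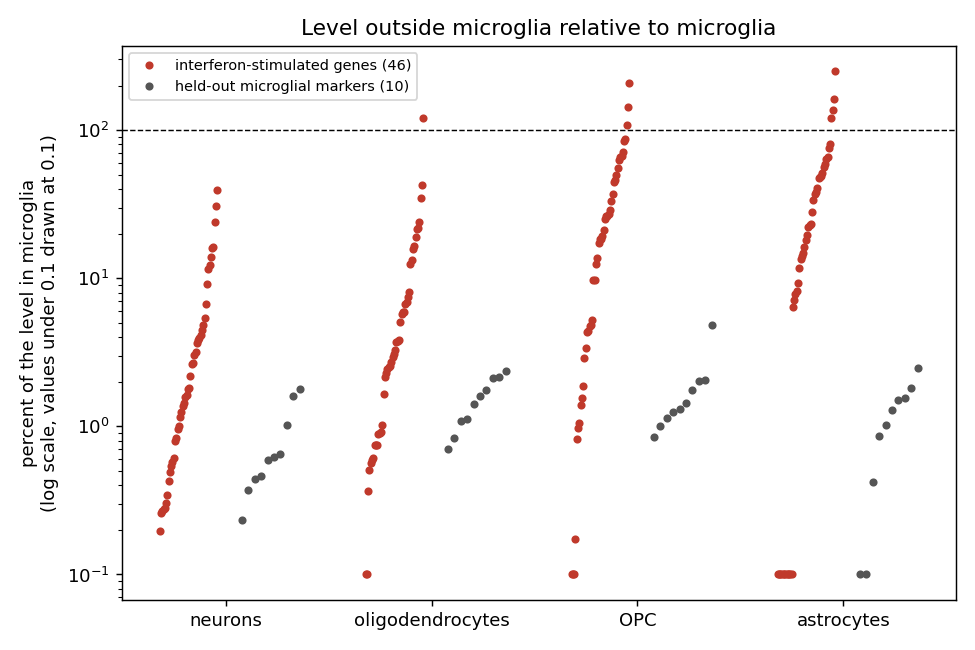
Mean level of each of the 46 genes in 4 cell classes as a percent of its mean level in microglia (log scale), beside the 10 microglial markers kept out of the assignment, with values under 0.1% drawn at 0.1% and a dashed line at the microglial level. The markers end at 4.84% in OPC, the highest for any class, whereas 10 interferon-stimulated genes lie at 50% or more there and none does in neurons.

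Members were higher in OPC than in neurons across most of their roles. Higher in OPC than in neurons were 29 of 40 tested, with none lower, where 25.8% of all genes were called higher. They included all 4 IFIT genes, 4 of 5 sensors and all 3 of the PARP genes with Dtx3l, but none of the 3 PYHIN genes tested. Those were Ifi204, Ifi207 and Ifi213, with 6, 3 and 0 UMIs in all OPC, too few for the test to tell whether they differed. In astrocytes 24 were higher than in neurons and none lower (20.1% of all genes higher and 25.0% lower), on 211 astrocytes in all. In oligodendrocytes 15 were higher (37.8% of all genes) and 2, Oas2 and Isg15, were lower (35.2% of all genes). The share of members higher in oligodendrocytes was thus close to that of all genes, and their number was 7 without 6M-1 and 23 with a looser assignment of nuclei.

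Xaf1 was the only tested member called lower in microglia than in another class. It was at 33.4, 39.3, 52.4 and 43.3 CPM in oligodendrocytes, at 39.9, 28.9, 39.9 and 31.6 CPM in microglia, and at 4.32 ± 0.816 CPM in neurons (SD, n = 4). In 3M-1 the microglial value was the higher one, and in the other libraries the oligodendrocyte value was. Microglia minus oligodendrocytes was −0.62 ± 0.19 on the log2 scale (SE, edgeR adjusted p = 0.00605). That call was lost when libraries were scaled by total UMIs alone (−0.24) and without 6M-1 (−0.55). Oligodendrocytes exceeded neurons by 3.23 ± 0.16 (SE, edgeR adjusted p = 2.06e-16).

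The members with most UMIs outside microglia were few and recurred between classes. In neurons they were Stat2, Herc6 and Irf9, and Herc6 was at 17.7, 23.2, 23.1 and 16.9 CPM and Irf9 at 10.5, 14.4, 10.5 and 11.8 CPM. In oligodendrocytes Xaf1 was followed by Stat2, at 41.2, 46.3, 40.3 and 36.9 CPM, and by Rnf213, at 16.7, 22.3, 44.0 and 20.4 CPM, which was highest in 6M-1. In OPC Rnf213 was at 43.5, 60.2, 79.5 and 46.8 CPM and Stat2 at 47.1, 45.5, 57.7 and 41.9 CPM, beside Ddx60. In astrocytes Herc6 was at 30.03, 89.1, 55.2 and 104.7 CPM, Rnf213 at 55.1, 49.5, 101.2 and 89.0 CPM and Eif2ak2 at 65.1, 69.3, 36.8 and 73.3 CPM, each on 45 to 50 UMIs in all.

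Excitatory and inhibitory neurons differed in both directions among 30 members tested. Excitatory neurons had more Herc6, Samd9l, Ifih1, Cmpk2 and Stat2 (5 members, where 24.8% of all genes were called higher) and less Ifit2, Rtp4, Eif2ak2 and Phf11d (4 members, where 26.3% were called lower). In both directions the share of the 30 members called was below that of all genes. Herc6 differed by 1.89 ± 0.08 and Ifit2 by −1.91 ± 0.24 on the log2 scale (SE, edgeR adjusted p = 1.07e-07 and 0.000155). Under scaling by total UMIs alone 4 were higher and 9 lower, without nuclei that held microglial UMIs 1 was higher, and with mice unpaired 2 were lower.

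Levels summed over a class do not say how UMIs were spread over nuclei. After each nucleus was thinned to 1000 UMIs, with 442 shallower nuclei left out (148 of them microglia), 3 or more members were found in 26.3%, 28.2%, 40.7% and 31.5% of microglia. In OPC these shares were 2.06%, 4.29%, 6.73% and 3.57%, and in neurons 0.108%, 0.0623%, 0.165% and 0.0955%. As a measure of free RNA, at least 3 of the 10 held-out microglial markers were found at the same depth in 0% to 0.0217% of neurons and 0% to 0.481% of OPC. In 6M-1 the microglial share had a Wilson 95% interval of 37.1% to 44.4%, and in 3M-1 of 22.4% to 30.5%, which cover counting error only. Without thinning the microglial shares were 47.3%, 37.9%, 64.1% and 60.5%, at median depths of 1498 to 2246.5 UMIs.

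Some nuclei of every class held many members at once. A nucleus with UMIs of at least 8 members, a threshold chosen after its values had been seen and applied at full depth, is called member-rich here. Nuclei under the threshold had median depths of 1797 UMIs in microglia, 3736 in OPC and 9289 in neurons, so shares are not at equal depth. Of microglia, 10.7%, 11.7%, 19.4% and 15.4% were member-rich, and of OPC 1.65%, 3.69%, 7.66% and 4.14%. These made up 325 of 2160 microglia, 35 of 838 OPC, 8 of 211 astrocytes, 80 of 20147 neurons and 7 of 4498 oligodendrocytes. Being chosen for these UMIs, they held 55.4% of all member UMIs of microglia, 40.5% of those of OPC and 7.24% of those of neurons. The OPC sums therefore rested on few nuclei for some genes. Of 62 OPC UMIs of Oasl2, 54 were in the 35 member-rich nuclei, as were 39 of 63 UMIs of Usp18 and 86 of 182 of Ddx60.

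Many member-rich neurons, OPC and oligodendrocytes also carried microglial RNA. Of the 80 neurons, 55 had a UMI of a held-out microglial marker (68.8%, against 23.4% of other neurons), 32 were doublets by Scrublet, and their median depth was 19556 UMIs against 9289. The share with such a UMI was 45.7% of the 35 OPC (18.3% of other OPC) and 57.1% of the 7 oligodendrocytes (12.2%), whereas it was 12.5% of the 8 astrocytes (15.3%). After nuclei with any microglial UMI and Scrublet doublets were set aside, 13 OPC were left, at least 1 in each library, with up to 22 members in 1 nucleus. Ddx60 was detected in 12 of these 13, Rnf213 in 11, and Ddx58 and Ifit3 in 9 each. Such counts describe nuclei that were chosen for holding at least 8 members. By the same rule 6 neurons, 6 astrocytes and 3 oligodendrocytes were left, with up to 20, 17 and 21 members. A UMI of any of 10 members that had more than 30 CPM in microglia and under 10% of that level in every other class (Sp100, Parp14, Ifi207, Ifi204, Ifi213, Trim30a, Trim30d, Slfn5, Slfn8 and Phf11d) was found in 3 of the 13 OPC, 3 of the 6 neurons, 5 of the 6 astrocytes and 1 of the 3 oligodendrocytes. Another 6 members were under 10% in every other class at lower microglial levels, and of these Oasl1 had a UMI in 1 of the 13 OPC and 1 of the 3 oligodendrocytes, and Cxcl10 in 1 of the 6 neurons and 1 of the 6 astrocytes.

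**Figure D4:**
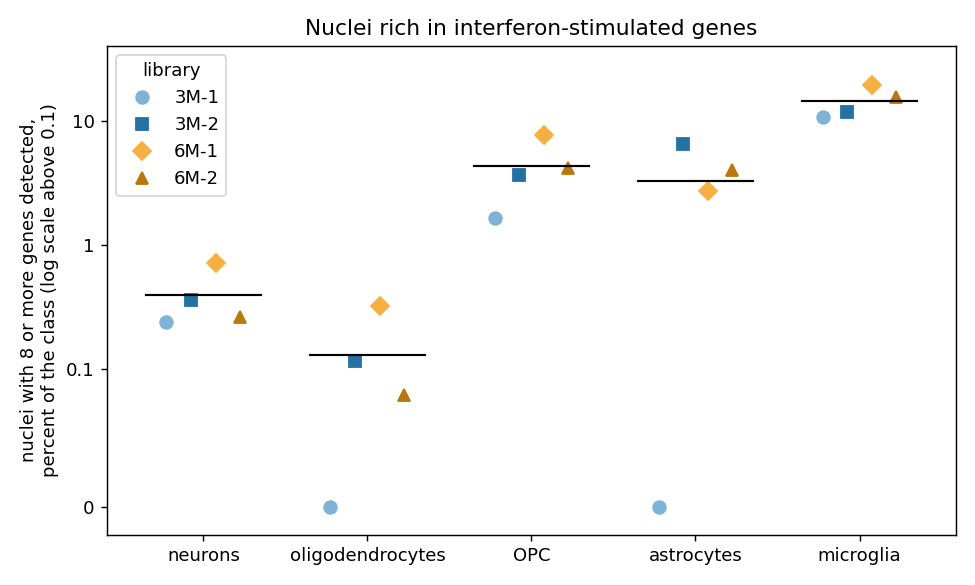
Percent of nuclei with UMIs of 8 or more of the 46 genes in each cell class (log scale above 0.1%), with 1 point per library and a line at the mean of 4 libraries. OPC reach 7.66% in 6M-1 against 19.4% of microglia, and 3M-1 has none among oligodendrocytes or astrocytes. Depth is not equal between classes, with medians of 3736 UMIs in other OPC and 1797 UMIs in other microglia.

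Between 3 and 6 months no member passed the test in microglia. The summed level was 2464 and 2708 CPM at 3 months and 3441.5 and 2681 CPM at 6 months, so 6M-2 lay within the range of the 3-month libraries. With 2 libraries against 2 an exact permutation test cannot give p below 0.333. In edgeR, 40 members were tested, none was called (0.026% of all genes were) and 6 had an unadjusted p under 0.05. So had 735 of all 11528 genes tested. DESeq2 also called none. The median log2 change of the members was 0.15, with 30 of 40 above 0, beside 0.00 and 50.1% above 0 for all genes. Leaving out 3M-1 gave log2 changes of 0.62 for Ifi204 and 0.72 for Rnf213. Leaving out 3M-2 gave 1.05 for Ifi204 and 1.00 for Slfn5. These genes were picked by their p in those fits, in which 3 months rested on 1 mouse.

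No change of a single gene in microglia passed the test. The largest was that of Ifi211, a PYHIN gene, at 1.48 ± 0.50 on the log2 scale (SE, edgeR adjusted p = 0.592), on 69 UMIs. Both of its 6-month libraries lay above both of its 3-month ones. Ifi204 had the lowest p, with 97.1 and 136 CPM at 3 months and 234 and 182 CPM at 6 months, and differed by 0.83 ± 0.22 on the log2 scale (SE, edgeR adjusted p = 0.395). Both 6-month libraries lay above both 3-month ones. The same held for Sp100, whose difference was 0.50 ± 0.22, for Rnf213, a large ubiquitin ligase, at 0.52 ± 0.21, and for Oasl2, an OAS-like gene, at 0.67 ± 0.26 (SE). Gbp7, a GTPase, had the opposite sign at −0.90 ± 0.36. Without overlap between the ages were 12 members higher and 3 lower at 6 months of 42 with at least 20 UMIs, where 19.9% of all genes were higher and 15.2% lower in this way. Ifit3 differed by −0.25 and the chemokine gene Cxcl10, at 22.7, 33.2, 17.5 and 39.4 CPM, by 0.02. Of 123 Cxcl10 UMIs in microglia, 120 lay in 16 member-rich nuclei, so its levels rest on few nuclei. At 6 months the microglial class also held more UMIs of held-out T-cell markers (3.63 and 4.33 CPM at 3 months, 28.0 and 40.2 CPM at 6 months), with 3 or more in 0, 0, 3 and 3 nuclei. Held-out macrophage markers in this class were at 246, 27.4, 199 and 159 CPM, with 3 or more UMIs in 7, 2, 10 and 12 nuclei. Nuclei with T-cell or macrophage UMIs were not removed, and the part of such cells in the members' levels was not tested.

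The other members abundant in microglia differed by less between the ages, and none had an unadjusted p under 0.05. Parp14, an ADP-ribosyltransferase, was at 195, 243, 258 and 233 CPM, with a difference of 0.15 ± 0.19 on the log2 scale (SE). Gm4951, a predicted interferon-inducible GTPase, was at 122, 96.8, 178 and 112 CPM and differed by 0.38 ± 0.26. Rnf213 itself was at 140, 113, 202 and 169 CPM and Oasl2 at 79.0, 73.7, 153 and 93.9 CPM, so the libraries of 6 months were also far apart. Trim30d was at 115, 146, 183 and 120 CPM and differed by 0.21 ± 0.24. Eif2ak2, the RNA-activated kinase PKR, was at 116, 131, 139 and 114 CPM and differed by 0.02 ± 0.21. The ages overlapped in all of these except Rnf213 and Oasl2. Herc6 was at 115, 121, 138 and 120 CPM with a difference of 0.10 ± 0.20, and Slfn8 was at 112, 103, 117 and 95.4 CPM with one of −0.04 ± 0.21. Trim30a differed by 0.18 ± 0.19 and Ddx60 by 0.06 ± 0.32. The differences of Trim30d, Eif2ak2, Herc6, Slfn8 and Ddx60 changed sign under at least 1 other processing or without 1 library. Irf7, the factor that amplifies interferon production, was at 19.1, 21.7, 25.2 and 11.8 CPM in microglia, and its difference was −0.13 ± 0.44. The signs for Irf7 and Ifit3 changed without 6M-2, and that for Cxcl10 changed under several settings.

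In the other classes edgeR called no member for age either. Tested were 38 members in neurons (0.00495% of all genes called), 13 in oligodendrocytes (0.0234%), 14 in OPC (0.00984%) and 4 in astrocytes (0.0494%). An unadjusted p under 0.05 was found for 6, 3, 3 and 0 of them, and DESeq2 called none. Among all genes tested in these classes it was found for 1207 of 20212, 812 of 12815, 522 of 10167 and 189 of 4047. In excitatory neurons alone none of 38 members was called (0.00512% of all genes), and in inhibitory neurons none of 16 (0.0% of all genes). The unadjusted p was under 0.05 for 6 and 2 of them in edgeR, and for 1265 of 19534 and 554 of 15777 of all genes. Without 3M-2, Eif2ak2 and Isg15 in excitatory neurons differed by 0.91 and 1.19 on the log2 scale. In neurons, oligodendrocytes, OPC and astrocytes the median log2 changes were 0.35, 0.95, 0.26 and 0.32, beside 0.00, 0.00, 0.00 and −0.01 for all genes. In oligodendrocytes Herc6 had 21, 15, 90 and 76 UMIs, or 8.16, 8.80, 25.2 and 23.2 CPM. This was a difference of 1.42 ± 0.28 on the log2 scale (SE, edgeR adjusted p = 0.252), and it was called with no filter on low counts. It was 1.43 without 3M-1 and 1.39 without 3M-2. In OPC Oasl2 had 5, 7, 41 and 9 UMIs. Without 3M-2 the log2 differences in OPC were 2.62 for Oasl2, 0.96 for Ddx60 and 2.16 for Samd9l. Leaving out 3M-2 gave 2.24, 3.93, 2.42 and 3.53 for Irf9, Ddx60, Eif2ak2 and Usp18 in oligodendrocytes, and 2.43 for Ifi204 in neurons. The genes named for fits without 3M-1 or 3M-2 were picked by their p there, with 1 mouse at 3 months. The share of all genes called in such fits, or with no filter on low counts, is not given. Held-out microglial markers were also higher at 6 months in oligodendrocytes, at 45.5, 55.7, 96.9 and 102 CPM, and in neurons, at 23.5, 29.99, 46.3 and 39.4 CPM, and their part in these changes was not tested.

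**Figure D5:**
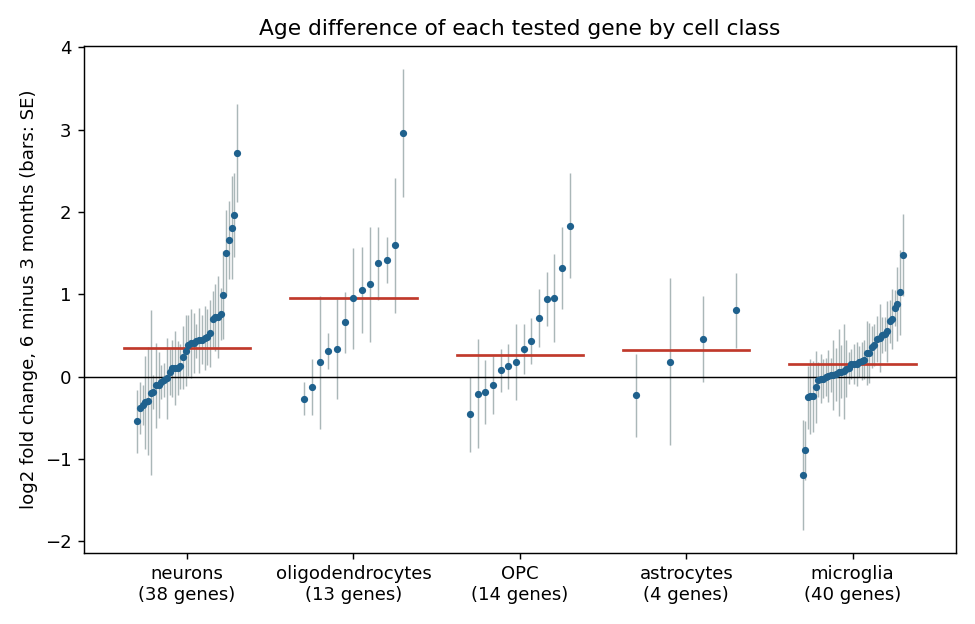
Log2 difference between 6 and 3 months (6 minus 3) of the members tested in each cell class, with 1 point per gene, its SE as a bar and a red line at the median. The medians run from 0.15 in microglia to 0.95 in oligodendrocytes, and no point passes an edgeR adjusted p of 0.05.

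The highest values of many members were those of 6M-1. Among members with at least 20 UMIs, 6M-1 was the highest library for 24 of 42 in microglia (24.1% of all genes), 26 of 42 in neurons (33.2%), 10 of 15 in oligodendrocytes (25.5%) and 11 of 23 in OPC (22.2%). The lowest library was 3M-1 for 19 of 42 in microglia (32.8% of all genes), 26 of 42 in neurons (41.6%), 12 of 15 in oligodendrocytes (44.0%) and 16 of 23 in OPC (28.2%), and for all genes too 3M-1 was the lowest library most often in these 4 classes. Without overlap between the ages, 13 of 42 members were higher at 6 months in neurons (21.9% of all genes), 7 of 15 in oligodendrocytes (26.0%), 10 of 23 in OPC (16.6%) and 1 of 7 in astrocytes (18.0%). Lower in this way were 1, 1, 2 and 1 members (14.9%, 11.4%, 17.4% and 15.9% of all genes).

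Whether the change with age itself differed between microglia and another class was tested as an interaction. It was called for 2 of 46 members against neurons, where 0.74% of all genes were called. Slfn8, a schlafen gene, had 123, 71, 167 and 121 UMIs in microglia and 6, 7, 32 and 17 UMIs in neurons, and Ifi207, a PYHIN gene, had 72, 48, 150 and 89 UMIs in microglia and 2, 4, 24 and 15 in neurons. The change in microglia minus that in neurons was −1.999 ± 0.48 for Slfn8 and −2.35 ± 0.64 for Ifi207 on the log2 scale (SE, edgeR adjusted p = 0.0121 and 0.0448). Both genes had more neuronal UMIs at 6 months, at means under 1 CPM, and so had 8 of the 10 held-out microglial markers in neurons. Neither was called by DESeq2, under a stricter or a looser assignment of nuclei, without nuclei that held microglial UMIs, without 3M-1, without 3M-2 or without 6M-1. Without Scrublet doublets, Slfn8 was called and Ifi207 was not. Without 6M-2, which left 1 mouse at 6 months, the value for Slfn8 was −2.19. No member was called against oligodendrocytes (0.0151% of all genes), OPC (0.0158%) or astrocytes (0.041%) in edgeR, and none by DESeq2. In edgeR 7, 7 and 1 members had an unadjusted p under 0.05, as had 1083 of 13265, 743 of 12642 and 459 of 9763 of all genes. Under the stricter assignment 3 were called against oligodendrocytes, Herc6 at −1.61 ± 0.35 among them (SE, edgeR adjusted p = 0.00132). The share of all genes called under that assignment is not given.

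Outside the list, 72 further genes of the interferon pathway had a row, of which 28 were further targets of interferon and not upstream genes. Apart from Ifnk, almost no interferon transcript was detected. No UMI of Ifnb1, Ifna1, Ifna4, Ifnl2 or Ifnl3 was found in any of the 5 classes, which in microglia allowed 2.10 to 4.33 CPM per library, and Ifna2, Ifne and Ifng had 3, 1 and 1 UMIs, all in neurons. Receptor genes were found in each class. Ifnar2 was at 247, 124, 202 and 196 CPM in microglia, at 39.9, 33.4, 51.2 and 48.1 CPM in OPC and at 17.0, 13.3, 15.2 and 15.7 CPM in neurons. Microglia exceeded neurons by 3.20 ± 0.11 and OPC exceeded neurons by 1.23 ± 0.15 on the log2 scale (SE, edgeR adjusted p = 9e-20 and 7.49e-08). Ifnar1 was at 60.8, 56.3, 55.3 and 60.0 CPM in microglia (58.1 ± 2.70, SD, n = 4) and between 17.3 and 20.9 CPM as a mean in the other classes. Tlr3, a sensor of double-stranded RNA in endosomes, was higher in astrocytes, at 68.7 ± 22.7 CPM, than in microglia, at 40.8 ± 2.56 CPM (log2 difference −0.95 ± 0.31 for microglia minus astrocytes, SE, edgeR adjusted p = 0.015).

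Of these pathway genes 50 could be tested between classes, 20 of them further targets of interferon. They too could enter this test through microglia alone, so the counts against microglia describe these genes and are not evidence for the class. Microglia had 47 higher and 1 lower than neurons (38.4% and 36.9% of all genes), 47 higher and 1 lower than oligodendrocytes (28.0% and 27.9%), 45 higher and 2 lower than OPC (30.2% and 29.2%), and 35 higher and 1 lower than astrocytes (23.7% and 19.0%). OPC had 22 higher and 7 lower than neurons (25.8% and 27.6% of all genes), and 11 of the higher ones were further targets of interferon. For age, none of them was called in any of the 5 classes by edgeR. In the interaction between microglia and neurons Tlr7 and Apobec3, both in the same direction as Slfn8 and Ifi207, were called at −1.76 ± 0.34 and −1.30 ± 0.29 (SE, edgeR adjusted p = 0.000501 and 0.00392).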

How the data were processed

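Nuclei of mouse cerebral cortex were profiled with 10x 3′ single-nucleus RNA-seq, 1 library per mouse, 2 mice per age. The deposited values are raw UMI counts per gene and barcode, which the authors made with Cell Ranger 7.0.0 on mm10 per the labels (whether intronic reads were counted is not given in the sources used here). Of 30784 barcodes, 30515 with at most 7000 genes and 1% mitochondrial UMIs were kept. A nucleus was assigned to a class when at least 3 of its 12 markers were detected and their UMIs were at least 2 times those of the next class. Doublets were not removed in the values reported, and Scrublet calls were used as an alternative. Counts were summed per library and class and tested with edgeR 4.0.16 (quasi-likelihood, TMM, filterByExpr), with ages compared within a class, classes compared with the mouse as a block, and p-values adjusted by Benjamini-Hochberg over all genes, at 0.05. DESeq2 1.42.0 was an alternative. CPM are UMIs scaled to 1000000 UMIs of the class in that library. R 4.3.3, Python 3.11.15, scanpy 1.11.5 and scipy 1.17.1 were used, and the tests were first run on simulated data. The members and lists were chosen with earlier results of these data known. By rule, library values are given for the 12 members with most UMIs in microglia, the 3 with most in each other class, members called for age or in the interaction, Irf7, Ifit3 and Cxcl10, and, of the pathway, for Ifnar1, Ifnar2, the ligands and at most 5 called genes per comparison in order of p. Other genes given by name, Tlr3 among them, were chosen after their values had been seen. A gene that the rule also covers is not reported here.

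Library totals of 59262228 to 65894316 UMIs left 108708 to 202010 UMIs per library in astrocytes and 692433 to 1428738 in microglia, against at least 48834698 in neurons, so precision is lowest in astrocytes. Floors are 3 counts of a class total, and intervals are Wilson 95% and cover counting error only. The batch number in the labels pairs 3M-1 with 6M-1 and 3M-2 with 6M-2. Deviations of paired libraries from their age means correlated at −0.114 in neurons, 0.0067 in oligodendrocytes, −0.0205 in OPC, −0.0475 in astrocytes and −0.0072 in microglia. Each library is 1 mouse, so p-values for age measure the spread between 2 mice per age. Those of the interaction, with the mouse as a block, measure how the class difference varied between 2 mice of the same age. Those of the class comparisons measure how the class difference varied over the 4 mice. Mx1 has no row, and promoter windows were found for 37 members.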

Additional observations from a re-analysis of the deposited data

Results flagged for a closer look

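The change with age differed between microglia and neurons, by an interaction test, for Slfn8 (−1.999 on the log2 scale, microglia minus neurons, edgeR adjusted p = 0.0121) and for Ifi207 (−2.35, edgeR adjusted p = 0.0448). In neurons Slfn8 had 6, 7, 32 and 17 UMIs and Ifi207 had 2, 4, 24 and 15 UMIs in the 2 libraries at 3 months and then the 2 at 6 months. Neither was called by DESeq2, under a stricter or looser assignment of nuclei, or without nuclei that held microglial UMIs. Neuronal means were 0.277% (Slfn8) and 0.279% (Ifi207) of those in microglia, within the 0.234% to 1.80% of the held-out microglial markers. Held-out microglial markers in the same neurons were at 23.5, 29.99, 46.3 and 39.4 CPM, and their part in the difference was not tested.

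Interferon-stimulated genes were also detected in nuclei outside the classes compared. The 47 nuclei assigned to vascular cells (3, 6, 17 and 21 in the libraries) held 104 member UMIs, or 1215 CPM over the 4 libraries, with a Poisson 95% interval of 992 to 1472 CPM that covers counting error only. Library values were 957, 471, 1798 and 1043 CPM.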

How the results depend on the processing

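Each member of 46 rests on 2 mice per age, and levels in astrocytes on 211 nuclei, so small differences could not be seen there. Of the recomputed counts of called members, 229 stayed within 1.5 times the count reported and 28 did not. The number called for age in neurons ran from 0 to 1, in oligodendrocytes from 0 to 5, in OPC from 0 to 3 and in microglia from 0 to 2 when 1 library was left out, and it was 0 in astrocytes. With no low-count filter 3 oligodendrocyte members and 1 OPC member were called for age. Shares of all genes called in these alternative settings are not given, and with 1 library left out 1 age rested on 1 mouse. With the labels' batch number as a replicate block 0 members were called for age in each of the 5 classes. The class comparisons had the mouse as a block in every setting except that with mice unpaired. With the pairing crossed, chosen after seeing the data, 1 member (Herc6) was called in oligodendrocytes and 0 in the other 4 classes, and Ifi207 was called in excitatory neurons taken alone. Members higher in oligodendrocytes than in neurons numbered 23 under the looser gate and 7 to 17 with 1 library left out. Between excitatory and inhibitory neurons 1 was higher without nuclei that held microglial UMIs, 9 were lower with total UMIs alone and 2 were lower with mice unpaired. In the interaction with neurons 0 members were called under the stricter gate, the looser gate, DESeq2 and without nuclei with microglial UMIs, 1 without Scrublet doublets (an alternative also chosen after seeing the data) and 0 to 1 with 1 library left out. In that with oligodendrocytes 3 were called under the stricter gate, 2 with no low-count filter, 1 without Scrublet doublets and 0 to 1 with 1 library left out. Small age differences in microglia changed sign. Under the looser gate Ddx60 was −0.035, Eif2ak2 −0.0076 and Herc6 −0.050, under the stricter gate Eif2ak2 −0.10 and Herc6 −0.037, and without Scrublet doublets Eif2ak2 −0.069. With 1 library left out Ddx60 ran from −0.38 to 0.59, Eif2ak2 from −0.14 to 0.15, Herc6 from −0.0040 to 0.20, Slfn8 from −0.19 to 0.10, Trim30d from −0.14 to 0.47, Cxcl10 from −0.67 to 0.50, Ifit3 from −0.76 to 0.099 and Irf7 from −0.79 to 0.29. Cxcl10 was −0.12 under the looser gate, −0.066 with the replicate block and −0.011 with it crossed. Ifit3b in microglia minus OPC was 0.040 with total UMIs alone, and with 1 library left out it ran from −0.50 to 0.14 and Ifit2 from −0.15 to 0.38. In astrocytes no member could be tested for age without nuclei that held microglial UMIs. The cause of these changes was not tested.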

Other observations

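Cxcl10, which encodes a chemokine that draws T cells, was found in few nuclei. In neurons 27 of its 37 UMIs lay in 4 member-rich nuclei, and in microglia 120 of its 123 UMIs lay in 16 of them. Its level in microglia was 22.7, 33.2, 17.5 and 39.4 CPM in the 2 libraries at 3 months and then the 2 at 6 months, and the 2 ages overlapped.

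Of 9 interferon genes searched, Ifnk, which encodes interferon kappa, was the one with more than 3 UMIs. It had 4, 6, 9 and 4 UMIs in oligodendrocytes of the same libraries (2.20 ± 1.04 CPM, SD, n = 4), 9 UMIs in neurons and 0 in OPC, astrocytes and microglia. The allowed level of 0 UMIs in microglia was 2.10 to 4.33 CPM per library, which is as high as the level in oligodendrocytes.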
